A study of Mus musculus with 41 samples.

Results

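9 genes that mark epithelial cells were followed across a mouse neural differentiation: Trp63, Cdh1, Epcam, Cldn4, Cldn7, Dsp, Perp, Sfn and Upk1b. They were taken by gene symbol from the table of counts, where all 9 of 9 were present among 24410 symbols and all 9 passed the filter on low counts. Without the Eed libraries of day 11 the filter would have kept 8, all but Upk1b. The set was selected on measured values of these libraries, namely its high day 11 levels after guides against Eed, so day 11 levels are described here without a test. The cells were R1-iCas9 mouse embryonic stem cells, whose Cas9 is made when doxycycline is added. Guides were pooled, 5 per gene, and aimed at Eed, at Ezh2, at Brd8 or at Nr6a1. Controls received a guide with no target (NT, which the labels also list as a knockout). All groups were then grown in the same medium with bFGF, next with the GSK3 inhibitor CHIR99021, next with retinoic acid and a Smoothened agonist, and finally with the agonist alone. RNA was collected at days 7, 9 and 11. There were 3 libraries per group, except 2 for Nr6a1 at each day and 2 for Brd8 at day 9, which gave 41 libraries in 15 groups. The labels call the cells neural progenitors. Whether replicates were grown separately is not stated, so a p-value measures the spread between these libraries only. Each culture is a pool of cells rather than a clone, and cultures with targeting guides may hold unedited cells. The share of edited cells was not measured here.

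Epithelial cells are held in sheets by junctions. E-cadherin, encoded by Cdh1, joins neighbouring cells in adherens junctions, claudins seal the space between them in tight junctions, and desmosomes tie their keratin filaments together. Trp63 encodes p63, a transcription factor of the p53 family that is needed for stratified epithelia such as the epidermis, and early neural tissue normally exchanges E-cadherin for N-cadherin. The proteins of Eed and Ezh2 are parts of PRC2, a complex that keeps genes silent by adding methyl groups to a histone. Brd8 protein belongs to a histone acetyltransferase complex, and Nr6a1 is a nuclear receptor with no known ligand.

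Library totals were 8581282 to 38240227 estimated counts. Levels are given as CPM, which divides each count by the effective size of its library, so that libraries of unequal depth and composition can be set side by side. A library with 0 counts of a gene allows a level of up to 0.0748 to 0.37 CPM, taken as 3 counts, and such limits cover counting error only. NT replicate 3 and Eed replicate 3 at day 11 agreed least with their own groups (highest correlation 0.939 and 0.945, below a cut of 0.95). NT replicate 3 also had 0 counts for 82 genes that averaged over 50 counts across the 41 libraries, the most of any library, so a 0 there need not mean a low level. Pooled guides need not lower a transcript, and over 12 comparisons of a targeted gene with NT the log2 fold change was -0.51 to 0.37. One of these passed, an increase of Ezh2 transcript at day 11. All 7 neural progenitor markers looked up (Sox1, Sox2, Pax6, Olig2, Nkx6-1, Nes and Fabp7) had counts in every group, with summed levels at day 11 of 780.3 to 919.8 CPM in Eed libraries, 1038 to 1251 CPM in Ezh2 libraries, 854 to 973 CPM in Brd8 libraries, 1419 to 1428 CPM in Nr6a1 libraries and 1477 to 1589.9 CPM in NT libraries.

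In the GENCODE annotation of GRCm38, the assembly also called mm10, Trp63 lies on chromosome 16 (25683763 to 25892102, plus strand), as does Upk1b (38773184 to 38800328, minus strand). Cdh1 lies on chromosome 8 (106603351 to 106670246, plus strand), Perp on chromosome 10 (18845020 to 18857073, plus strand) and Cldn7 on chromosome 11 (69964779 to 69967885, plus strand). Trp63 has 8 annotated transcripts, which include long and short amino-terminal forms, and counts per gene do not separate them. Annotated genes overlap Trp63 (Gm24928 and Gm27005) and Dsp (Gm10129), and the strand setting of the counting is not given in the sources used here, so their reads cannot be told apart from those of Trp63 and Dsp.

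RefSeq promoter sequence (GRCm38.p6) was at hand for 5 of the 9 genes. The 250 bases before the start of Epcam, Cldn4, Sfn and Dsp are shown, with letters known from epithelial gene control printed in capitals. The Cldn7 windows are not shown. CAGGTG is an E-box that Snail and Zeb repressors bind in the Cdh1 promoter, AACNGGTT is the Grainyhead-like motif, and the p63 half-site is one arm of the motif that p63 binds. Each was searched on both strands, and the 3 motifs did not overlap in these windows.
Epcam: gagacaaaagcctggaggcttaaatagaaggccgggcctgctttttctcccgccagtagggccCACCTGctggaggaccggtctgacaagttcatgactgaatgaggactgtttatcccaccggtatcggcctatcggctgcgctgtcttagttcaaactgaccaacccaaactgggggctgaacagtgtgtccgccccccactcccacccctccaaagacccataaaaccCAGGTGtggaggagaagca
Cldn4: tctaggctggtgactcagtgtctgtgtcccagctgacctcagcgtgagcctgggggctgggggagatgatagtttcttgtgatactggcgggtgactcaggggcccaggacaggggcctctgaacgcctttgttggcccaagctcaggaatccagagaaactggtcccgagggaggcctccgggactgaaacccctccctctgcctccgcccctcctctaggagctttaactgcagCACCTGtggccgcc
Sfn: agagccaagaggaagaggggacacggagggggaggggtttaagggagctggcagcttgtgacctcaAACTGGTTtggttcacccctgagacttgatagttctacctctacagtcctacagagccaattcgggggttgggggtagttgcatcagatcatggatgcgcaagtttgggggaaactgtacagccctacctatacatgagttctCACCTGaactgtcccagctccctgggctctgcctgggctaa
Dsp: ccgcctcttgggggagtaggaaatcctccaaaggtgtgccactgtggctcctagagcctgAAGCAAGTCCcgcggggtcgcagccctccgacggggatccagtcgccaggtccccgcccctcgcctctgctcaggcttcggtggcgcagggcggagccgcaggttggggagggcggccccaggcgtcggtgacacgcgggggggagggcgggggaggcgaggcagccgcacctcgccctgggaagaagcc
The Epcam window (chr17:87635729-87635978, plus strand) holds CAGGTG at 2 places, counting either strand, beginning 187 and 19 bases before the start. The Cldn4 window (chr5:134946935-134947184, minus strand) holds it once, 14 bases before the start, and the Sfn window (chr4:133602169-133602418, minus strand) once, 41 bases before the start. Sfn also holds AACNGGTT 184 bases before the start. The Dsp window (chr13:38151044-38151293, plus strand) holds neither, but a p63 half-site 190 bases before the start and 22 CpG dinucleotides, against a median of 6 over all windows. Of the Cldn7 windows, 1 held none of these letters and the other held CAGGTG at 2 places. Among 32851 RefSeq windows of the same length, 17.2% held CAGGTG, 1.79% AACNGGTT and 7.13% a p63 half-site, so these matches describe the sequence and do not mark sites of binding.

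At day 11 all 9 genes were higher in every Eed library than in every NT library, a separation seen for 17.4% of all tested genes. Their choice used this contrast, so nothing is read from the count. In the other guides, 1 of 9 genes lay above every NT library with Ezh2 guides (Epcam; 13.3% of all genes), 0 with Brd8 guides (15.4%) and 2 with Nr6a1 guides (Cdh1 and Epcam; 13.2%). None of the 9 lay below every NT library with Eed guides (15.4% of all genes), Ezh2 guides (10.2%), Brd8 guides (13.2%) or Nr6a1 guides (7.62%). In these bulk samples, more cells of an epithelial type and more RNA per cell cannot be told apart.

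**Figure D1:**
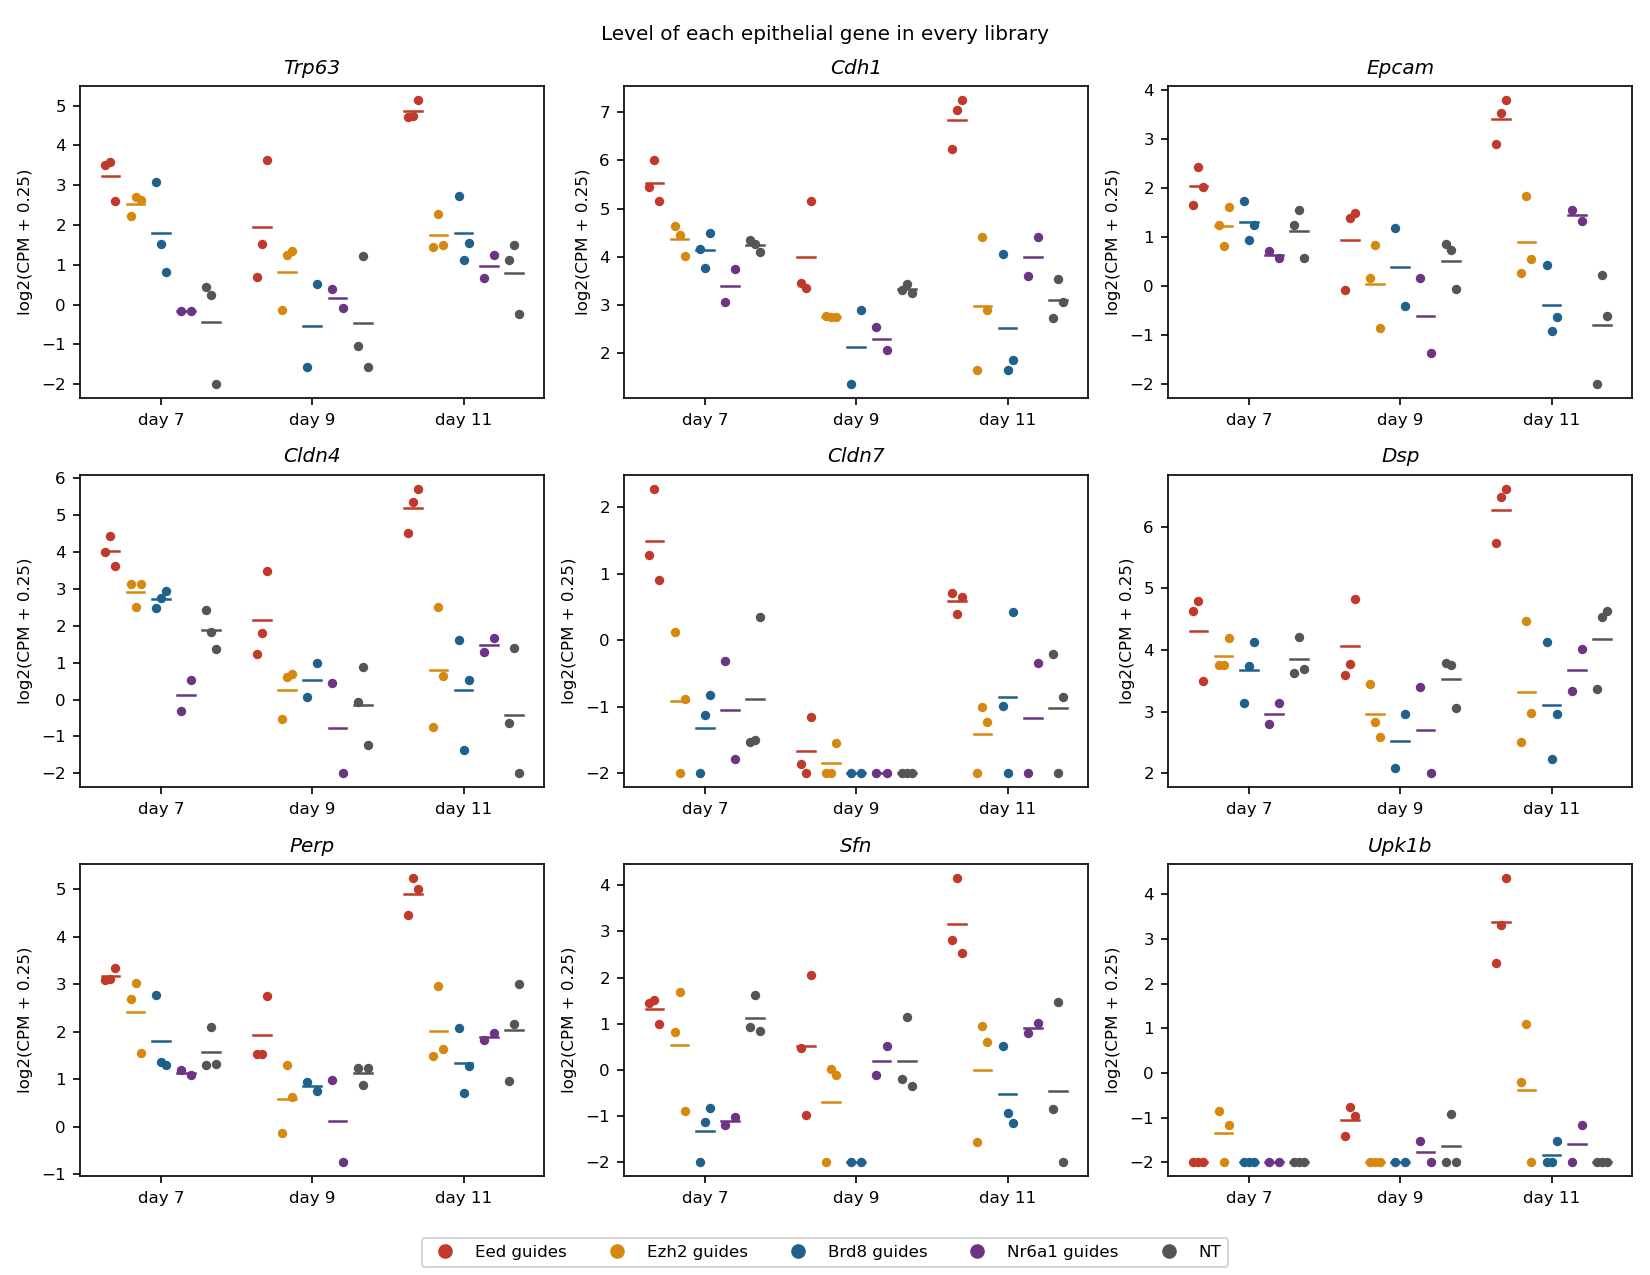
Level of each of the 9 genes as log2(CPM + 0.25), 1 point per library, with a bar at the mean of each group, by day and by guides (Eed, Ezh2, Brd8, Nr6a1, then NT). The Eed libraries of day 11 lie above every other library of that day, except in Cldn7, where 1 Brd8 library reaches 1.09 CPM and the lowest Eed library 1.07 CPM. Those of day 7 already lie above NT for Trp63, Cdh1, Epcam, Cldn4, Cldn7 and Perp.

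Trp63 rose with Eed guides at day 7. There it stood at 11.1, 11.7 and 5.86 CPM in Eed libraries, against 1.11, 0.937 and 0 CPM in NT libraries, with no overlap. The log2 fold change was 3.69 ± 0.82 (SE; 12.9-fold; adjusted p = 0.00278, edgeR's quasi-likelihood test with Benjamini-Hochberg adjustment), and it passed in all 12 alternative settings tried. Ezh2 libraries at day 7 had 4.43, 6.31 and 5.98 CPM and Brd8 libraries had 8.26, 2.62 and 1.5 CPM, all above NT. These differences did not pass the test in edgeR (log2 fold change 2.91 ± 0.815, adjusted p = 0.112 for Ezh2; 2.48 ± 0.815, adjusted p = 0.0681 for Brd8). They passed in 2 of 11 alternative settings for Ezh2 and in 3 of 12 for Brd8. Nr6a1 libraries, at 0.648 and 0.639 CPM, lay within the range of NT.

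At day 9 Trp63 was higher with Eed guides by 2.56 ± 0.772 log2 units (SE; adjusted p = 0.0436 by edgeR), but the groups overlapped. Eed libraries had 1.37, 2.64 and 12.2 CPM, against 0.234, 2.06 and 0.0887 CPM in NT libraries. The call rested on Eed replicate 3, without which the log2 fold change was 1.10 (adjusted p = 0.638). Without NT replicate 2 it was 4.95 (adjusted p = 0.00714). The call was also lost without Eed replicate 2 (2.88, adjusted p = 0.0642), without NT replicate 1 (2.17, adjusted p = 0.19), without NT replicate 3 (2.12, adjusted p = 0.219) and with only these groups in the fit (2.58, adjusted p = 0.144). At day 11 Trp63 stood at 26.2, 26.6 and 34.9 CPM in Eed libraries, against 1.94, 2.60 and 0.604 CPM in NT libraries (16.8-fold). Ezh2 libraries had 2.46, 4.57 and 2.59 CPM, Brd8 libraries 6.42, 1.94 and 2.66 CPM and Nr6a1 libraries 1.34 and 2.13 CPM. Each of these groups overlapped NT, and none came near Eed.

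Over the 15 groups, the highest mean of Trp63 was that of Eed at day 11 (29.2 ± 4.91 CPM, SD, n = 3), followed by Eed at day 7 (9.56 ± 3.21 CPM), Ezh2 at day 7 (5.58 ± 1.00 CPM) and Eed at day 9 (5.41 ± 5.93 CPM). Only 2 steps in that order had no overlap between neighbouring groups, the one below Eed at day 11 and the one between Ezh2 at day 11 (3.21 ± 1.18 CPM) and Nr6a1 at day 11 (1.74 ± 0.555 CPM). NT stood in the lower part of the order at each day, at 1.71 ± 1.02 CPM at day 11, 0.796 ± 1.10 CPM at day 9 and 0.683 ± 0.598 CPM at day 7.

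Cdh1 stood apart at day 7 without passing the test. There it stood at 43.4, 63.9 and 35.6 CPM in Eed libraries, against 20.2, 19.1 and 16.9 CPM in NT libraries. The groups did not overlap, yet the log2 fold change of 1.34 ± 0.472 (SE; adjusted p = 0.0706 by edgeR) did not pass over all genes. It passed in 2 of 12 alternative settings, with no filter on low counts and with only these groups in the fit. At day 9 Eed replicate 2, at 10.0 CPM, lay within the NT range of 9.23 to 10.6 CPM. Eed replicate 1, at 10.7 CPM, lay just above that range, while Eed replicate 3 stood at 35.6 CPM. At day 11 Eed libraries had 74.8, 133 and 152 CPM, against 6.43, 11.3 and 8.15 CPM in NT libraries (13.9-fold), and Ezh2 libraries were spread over 2.90, 20.9 and 7.20 CPM. In the order of the 15 groups, Eed at day 11 (119.9 ± 40.3 CPM, SD, n = 3) and Eed at day 7 (47.6 ± 14.6 CPM) each stood clear of the next group, and below them the ranges of neighbours overlapped down to Ezh2 at day 9 (6.51 ± 0.0739 CPM), which lay above Nr6a1 at day 9 (4.76 ± 1.13 CPM, n = 2).

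Epcam, which encodes an adhesion protein of the epithelial surface that is also present in embryonic stem cells, stood at 2.92, 5.18 and 3.80 CPM in Eed libraries at day 7, against 2.13, 2.71 and 1.23 CPM in NT libraries. The groups did not overlap, but the difference of 0.96 ± 0.674 log2 units did not pass (adjusted p = 0.442 by edgeR). At day 11 it stood at 7.27, 11.4 and 13.7 CPM in Eed libraries, 0.965, 3.33 and 1.23 CPM in Ezh2 libraries and 2.69 and 2.28 CPM in Nr6a1 libraries, against 0, 0.928 and 0.402 CPM in NT libraries. All 3 of these guide groups lay above NT, with Eed above Ezh2 and Nr6a1. The Eed log2 fold change of 4.61 was 5.81 without NT replicate 2 and 3.99 without NT replicate 1.

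Cldn4, a tight junction strand protein, stood at 15.8, 21.5 and 12.2 CPM in Eed libraries at day 7, against 5.17, 3.33 and 2.36 CPM in NT libraries (log2 fold change 2.15 ± 0.733, SE; adjusted p = 0.0592 by edgeR, not passing). At day 9 it stood at 2.09, 3.23 and 11 CPM in Eed libraries, against 0.701, 1.61 and 0.177 CPM in NT libraries (2.56 ± 0.806, adjusted p = 0.0543, not passing). At both days the groups did not overlap. The difference passed in 3 of 12 alternative settings at day 7 and in 4 of 12 at day 9. At day 11 Eed libraries had 22.7, 41 and 52.1 CPM, against 0.387, 2.41 and 0 CPM in NT libraries. The log2 fold change of 5.36 was 7.43 without NT replicate 2, and 4.81 without NT replicate 3.

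Cldn7, another claudin, was low throughout. It stood at 2.17, 4.56 and 1.63 CPM in Eed libraries at day 7, against 0.0966, 0.104 and 1.03 CPM in NT libraries. This difference did not pass (2.80 ± 1.43 log2 units, SE; adjusted p = 0.258 by edgeR), except in 1 of 12 alternative settings. At day 9 Cldn7 had 4 counts in all over the Eed libraries, 3 over the Ezh2 libraries and none in any Brd8, Nr6a1 or NT library. At day 11 Eed libraries had 1.39, 1.07 and 1.31 CPM, against 0.619, 0 and 0.302 CPM in NT libraries, the smallest fold of the 9 genes (3.94-fold). Its highest group mean was that of Eed at day 7 (2.79 ± 1.56 CPM, SD, n = 3), not that of Eed at day 11, unlike the other 8 genes. The day 11 log2 fold change of 1.98 was 3.02 without NT replicate 1.

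Dsp encodes desmoplakin, which links desmosomes to keratin filaments, and Perp a membrane protein that p63 activates and that desmosomes need in mouse skin. Perp passed at day 7, at 8.24, 8.39 and 9.99 CPM in Eed libraries, against 2.22, 4.06 and 2.26 CPM in NT libraries (log2 fold change 1.65 ± 0.53, SE; adjusted p = 0.0431 by edgeR), with no overlap. That call was lost whenever any one of the 6 libraries was left out (log2 fold change 1.49 to 1.98, adjusted p = 0.0514 to 0.158). At day 11 Perp stood at 21.7, 37.5 and 32.0 CPM in Eed libraries, against 1.70, 4.27 and 7.75 CPM in NT libraries (6.69-fold). Its day 11 log2 fold change of 2.74 was 3.35 without NT replicate 3, the NT library with the highest value.

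Dsp overlapped between groups at day 7. It stood at 24.5, 27.6 and 11.1 CPM in Eed libraries, against 12.1, 18.3 and 12.7 CPM in NT libraries, with overlap (0.56 ± 0.448 log2 units, SE; adjusted p = 0.515 by edgeR). At day 11 it stood at 52.8, 88.8 and 97.4 CPM in Eed libraries, against 10.1, 23.0 and 24.6 CPM in NT libraries (4.15-fold). Ezh2 libraries at day 11 had 5.44, 21.9 and 7.60 CPM, 2 of which lay below every NT library.

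Sfn encodes 14-3-3 sigma, a phosphoprotein-binding adaptor of keratinocytes and a p53 target. It fell with Brd8 guides at day 9. There it had 0 counts in both Brd8 libraries, against 0.623, 1.97 and 0.532 CPM in NT libraries, which hold 57 counts together. The level was at least 12.8-fold lower, taken against 3 counts over the Brd8 group (adjusted p = 0.0219 by edgeR). This bound was 5.97-fold without NT replicate 2, which holds 43 of the 57 counts, 8.11-fold without Brd8 replicate 1 and 4.66-fold without Brd8 replicate 2. The call was lost without Brd8 replicate 1 (adjusted p = 0.0924), without Brd8 replicate 2 (adjusted p = 0.202) and without NT replicate 2 (adjusted p = 0.073). At day 7 Brd8 libraries had 0, 0.21 and 0.316 CPM and Nr6a1 libraries 0.185 and 0.24 CPM, all below the NT libraries at 1.64, 2.81 and 1.54 CPM. Neither passed in edgeR (log2 fold change -3.45 ± 1.18, SE, adjusted p = 0.0831 for Brd8; -3.14 ± 1.30, adjusted p = 0.523 for Nr6a1), while the DESeq2 Wald test called Sfn lower with Brd8 guides (adjusted p = 0.0325). With Eed guides Sfn stood at 2.47, 2.59 and 1.74 CPM at day 7, within the NT range. At day 11 it stood at 6.78, 17.5 and 5.58 CPM in Eed libraries, against 0.31, 2.50 and 0 CPM in NT libraries. That log2 fold change of 3.40 was 5.82 without NT replicate 2 and 2.71 without Eed replicate 2.

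Upk1b encodes a uroplakin of the urothelial surface. At day 7 it had 0 counts in every Eed, Brd8, Nr6a1 and NT library and 6 counts in all over the Ezh2 libraries. At day 9 the Eed libraries had 0.125, 0.34 and 0.265 CPM, against 0, 0.275 and 0 CPM in NT libraries. At day 11 Eed libraries had 5.31, 9.75 and 20.3 CPM, Ezh2 libraries 0.614, 1.89 and 0 CPM, and NT libraries no count. The level was at least 106-fold higher with Eed guides (435 counts in all) and at least 9.29-fold higher with Ezh2 guides (45 counts), each taken against 3 counts over the NT group. Of the 45 counts 38 were in Ezh2 replicate 2, without which the Ezh2 bound was 2.30-fold. It was 16-fold without Ezh2 replicate 3 and 5.72-fold without NT replicate 1. The Eed bound was 65.6-fold without NT replicate 1 and 160.2-fold without Eed replicate 1.

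Counted over these genes, the tests at days 7 and 9 gave few calls. A gene with no more than 3 counts in either group had no test, which left 8 genes at day 7 with Eed, Brd8 and Nr6a1 guides (all but Upk1b) and 8 at day 9 with Ezh2, Brd8 and Nr6a1 guides (all but Cldn7). With Eed guides at day 7, 2 of 8 rose (Trp63 and Perp; 2.9% of all genes) and 0 fell (5.76%), and 6 of 9 lay above every NT library (13%). At day 9, 1 rose (Trp63; 2.99%) and 0 fell (2.16%), with Cldn4 and Perp above every NT library (13.1%). With Brd8 guides 0 passed at day 7 (1.3% of all genes higher and 3.45% lower), with Trp63 and Cldn4 above every NT library (11.2%) and Sfn below (13.6%). At day 9 Sfn fell with Brd8 guides (7.81%) and 0 rose (7.72%), with Cdh1, Dsp and Sfn below every NT library (22.2%) and 0 above (22.3%). By edgeR, 0 passed with Ezh2 guides at day 7 (0.0855% higher, 0.0658% lower), with Ezh2 guides at day 9 (0% in either direction), with Nr6a1 guides at day 7 (0.145% and 0%) or with Nr6a1 guides at day 9 (0.138% and 0.0132%).

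For those comparisons with no call, the number of the 9 genes at an unadjusted p under 0.05 was 1 for Ezh2 at day 7 (Trp63), 0 for Ezh2 at day 9, 2 for Brd8 at day 7 (Trp63 and Sfn), 2 for Nr6a1 at day 7 (Cldn4 and Sfn) and 0 for Nr6a1 at day 9. The DESeq2 Wald test called 1 for Brd8 at day 7 (Sfn) and 0 for Nr6a1 at day 9. It gave no adjusted p to any of the 9 for Ezh2 at day 7 or day 9, and to 8 of the 9 for Nr6a1 at day 7. With Nr6a1 guides at day 7, 5 of 9 genes lay below every NT library (Cdh1, Cldn4, Dsp, Perp and Sfn; 12.8% of all genes) and 0 above (14.6%). In Cldn4 this was 0.556 and 1.2 CPM in Nr6a1 libraries, against 5.17, 3.33 and 2.36 CPM in NT libraries. The median log2 fold change at day 7 over the 8 genes other than Upk1b was 1.5 with Eed guides, 0.12 with Ezh2 guides, 0.06 with Brd8 guides and -0.71 with Nr6a1 guides, against 0.00 over all tested genes in each. These comparisons share their NT libraries. With Ezh2 guides Trp63 and Cldn4 lay above every NT library at day 7 (9.23%) and 0 below (10.6%), while at day 9 Cdh1 lay below (5.16%) and 0 above (5.92%). With Nr6a1 guides at day 9 Cdh1 lay below (13.4%) and 0 above (13.6%). With Eed guides 0 lay below every NT library at day 7 (14.8%) or day 9 (12.3%).

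**Figure D2:**
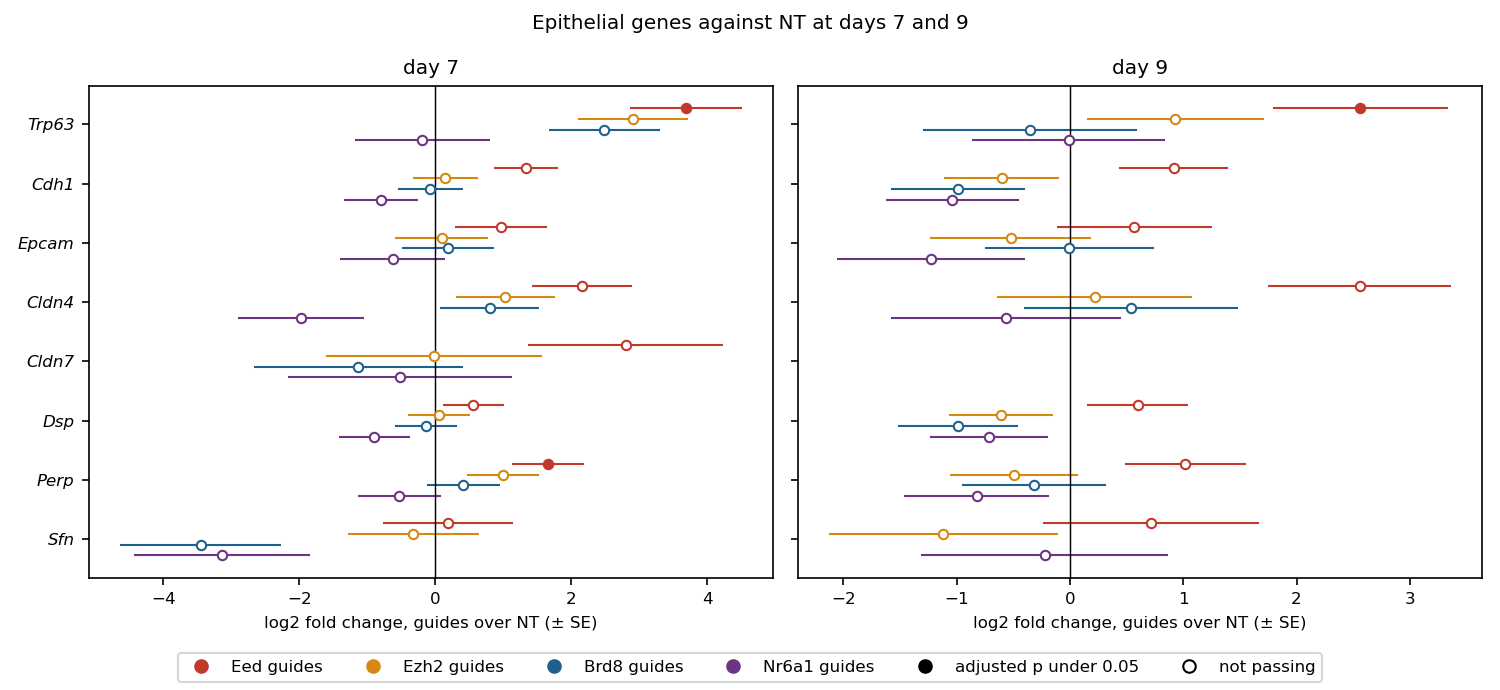
Log2 fold change of each gene with its SE, guides over NT, at day 7 (left) and day 9 (right), in the colours of the 4 guide groups, with filled points where the adjusted p was under 0.05. Upk1b was left out at both days. Cldn7 at day 9 and Sfn with Brd8 guides at day 9 are not drawn because a group had no count. The panels differ in scale. Filled points are Trp63 at both days and Perp at day 7, all with Eed guides.

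The change of these genes with time was tested between days 7 and 9. In NT itself, 0 of 9 passed from day 7 to day 9 by edgeR (14.5% of all genes higher and 13.3% lower), with 2 at an unadjusted p under 0.05 (Cldn4 and Cldn7) and 1 called by DESeq2 (Cldn7). Cdh1, Cldn4, Cldn7 and Perp lay lower at day 9 in every NT library than in any at day 7 (22.9%), and 0 higher (22.3%). The share of counts of Rn45s, a ribosomal RNA precursor, differed in the same comparison, at 5.95 to 6.89% in NT libraries at day 9, against 14.1 to 14.7% at day 7. It was also 10.4 and 6.71% in Nr6a1 libraries at day 7. Its part in these results was not tested. Cldn4 stood at 0.701, 1.61 and 0.177 CPM at day 9, against 5.17, 3.33 and 2.36 CPM at day 7 (-2.02 ± 0.814 log2 units, SE; adjusted p = 0.0602 by edgeR). Between days 9 and 7, 0 of 7 genes with counts in all 4 groups differed in the Eed, Ezh2 or Nr6a1 effect by edgeR, and 0 of 6 in the Brd8 effect. DESeq2 called 0 for Ezh2, Brd8 and Nr6a1 and gave no adjusted p to any of the 9 for Eed. The shares over all genes were 0.0789% higher and 0.0197% lower for Eed, 0% in both directions for Ezh2, 0.105% and 0.0789% for Brd8, and 0.00658% and 0.0132% for Nr6a1. At an unadjusted p under 0.05 there was 1, Trp63 with Brd8 guides (-2.84 ± 1.26 log2 units, SE; adjusted p = 0.394 by edgeR).

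Eed and Ezh2 guides target the same complex, and their libraries were set side by side. At day 11 all 9 genes were higher in every Eed library than in every Ezh2 library (10.9% of all genes) and none lower (12%), by 5.75-fold for Epcam to 15.7-fold for Cldn4, and 9.04-fold for Trp63 and 11.3-fold for Cdh1. This is again a description, since the choice of genes used the Eed libraries. At days 7 and 9 the difference was tested, and 0 of 9 passed by edgeR at either day (at day 7 0.0132% of all genes higher and 0.138% lower, at day 9 0% in both directions). At an unadjusted p under 0.05 there was 1 at day 7 (Cdh1, 1.19 ± 0.471 log2 units, SE; adjusted p = 0.334) and 5 at day 9 (Cdh1, Cldn4, Dsp, Perp and Trp63), all higher with Eed guides. Upk1b is left out here, since it passed the count filter through the Eed libraries of day 11. DESeq2 gave an adjusted p to 2 of the 9 at day 7, neither of them called, and to none at day 9. Cdh1, Epcam, Cldn4, Cldn7 and Perp lay above every Ezh2 library at day 7 (7.12%) and 0 below (7.95%). At day 9 Cdh1, Cldn4, Dsp and Perp lay above (6.5%), as did Upk1b on 13 counts against 0, and 0 lay below (6.54%). Cdh1 at day 9 stood at 10.7, 10.0 and 35.6 CPM in Eed libraries, against 6.59, 6.47 and 6.46 CPM in Ezh2 libraries (1.52 ± 0.496 log2 units, SE; adjusted p = 0.242 by edgeR).

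The libraries of a group did not move as one. The summed level of the 9 genes was 219, 367 and 409 CPM in Eed libraries at day 11, 15.4, 67.5 and 24.2 CPM in Ezh2 libraries and 49.4, 11.4 and 18.6 CPM in Brd8 libraries, against 21.5, 47.0 and 41.9 CPM in NT libraries. Ezh2 replicate 2 had the highest level of its group in all 9 genes, and without it the Ezh2 log2 fold change of Cdh1 was -0.70 in place of 0.30. At day 9 the sum was 30.6, 35 and 100.5 CPM in Eed libraries, against 28.6, 32.8 and 20.9 CPM in NT libraries. In that sum Eed replicate 3 stood far above the rest, although Cldn4 and Perp were above every NT library in each Eed library. At day 7 it was 110.6, 145 and 81.9 CPM in Eed libraries, against 44.7, 51.3 and 38.1 CPM in NT libraries, with no overlap.

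**Figure D3:**
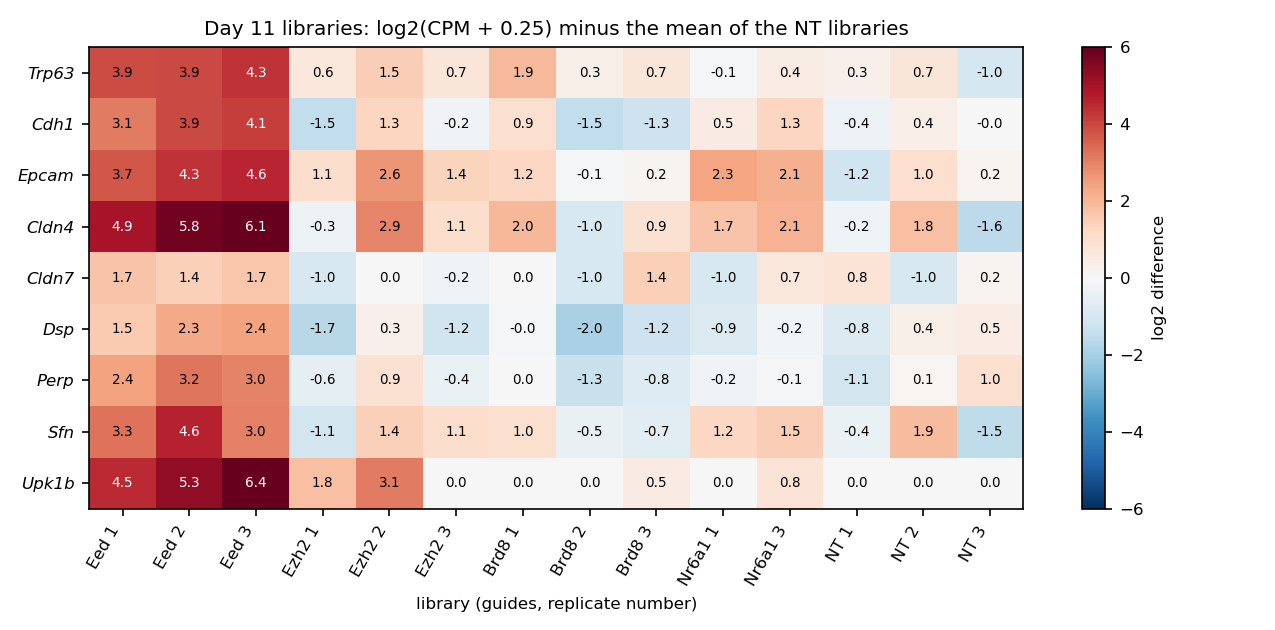
Level of each gene in every day 11 library as the difference in log2(CPM + 0.25) from the mean of the NT libraries, with libraries in columns (Eed, Ezh2, Brd8, Nr6a1, then NT, by replicate number) and genes in lines. The Eed columns are red in every gene, while Ezh2 replicate 2 and Brd8 replicate 1 are above the other libraries of their groups in most genes.

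The correlation of the 9 genes over the 41 libraries is a description, with no test, and since the genes were chosen for high levels in the Eed libraries of day 11, a high value was built in. Over 36 pairs of genes the Pearson correlation of log2 CPM had a median of 0.64 (0.34 to 0.879), against 0.00523 over all pairs of tested genes. The highest was that of Cdh1 with Dsp (0.879), followed by Cdh1 with Cldn4 (0.875). Within groups, after each group's mean was taken away, the median was 0.336 (-0.152 to 0.803), against 0.00457 over all pairs of tested genes. There 32 of the 36 pairs were positive, and Cdh1 with Dsp was again highest (0.803). The pairs below 0 were Cldn7 with Epcam, Trp63 and Perp, and Sfn with Upk1b. All pairs share the same libraries and their depth.

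Divided by the length of the gene's merged exons, the levels at day 11 in Eed libraries were 26.2 ± 8.80 CPM per kb for Cdh1, 21.2 ± 8.17 for Cldn4, 15.6 ± 4.10 for Perp and 8.25 ± 2.45 for Dsp (SD, n = 3). They were 6.18 ± 4.08 for Sfn, 5.65 ± 3.70 for Upk1b, 4.91 ± 1.48 for Epcam, 3.48 ± 0.585 for Trp63 and 0.644 ± 0.0866 for Cldn7. In NT libraries at day 11 the highest on this scale were Perp (2.34 ± 1.55), Dsp (1.99 ± 0.827) and Cdh1 (1.89 ± 0.542), which did not differ beyond their spread.

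Genes of 7 other epithelial lists, none of them among the 9, were tested at all 3 days. The lists were chosen with results of these libraries known, so their counts at day 11 describe the lists and are no independent evidence of a direction. At day 11 with Eed guides 45 of the 72 tested rose and 1 fell by edgeR, against 13.3% of all genes higher and 10.6% lower, and their median log2 fold change was 2.71, against 0.02 over all genes. With Ezh2 guides 5 of 72 rose and 0 fell (5.22% and 2.7% of all genes), with Brd8 guides 4 rose and 2 fell (10.3% and 7.48%), and with Nr6a1 guides 0 of 72 rose or fell (0.0526% and 0.0263%). Of the genes named below, Pkp2, Ppl, Krt4 and Tfap2a rose with Ezh2 guides at day 11. With Brd8 guides Pkp2, Itga6 and Tfap2a rose and Dst fell. The Ezh2 calls held in 8 of 12 alternative settings for Pkp2, 5 of 11 for Ppl and 2 of 11 for Krt4. The Brd8 call of Pkp2 held in 4 of 12. With Eed guides, 6 of 72 had risen and 1 had fallen at day 7 (2.9% and 5.76% of all genes), and 4 had risen and 0 fallen at day 9 (2.99% and 2.16%).

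**Figure D4:**
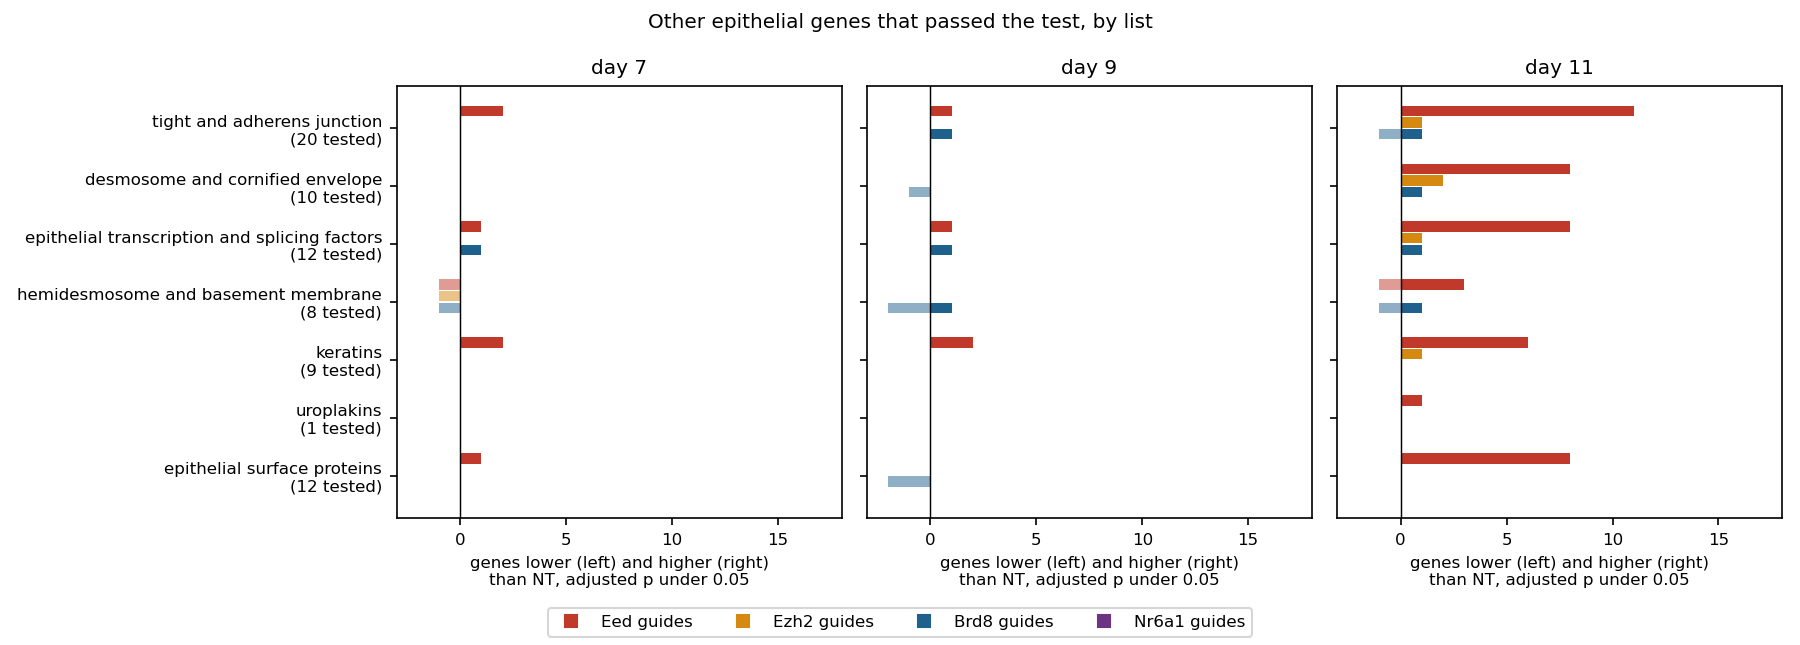
Number of genes in each of 7 epithelial lists that were higher (right, full colour) or lower (left, pale) than NT at an adjusted p under 0.05, by day and by guides. The bars for Eed guides at day 11 reach 11 of 20 tight and adherens junction genes and 8 of 10 desmosome genes, and Nr6a1 guides give no bar.

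In the tight and adherens junction list 11 of 20 rose with Eed guides at day 11 and 0 fell. Cdh3, encoding P-cadherin, stood at 25.8 ± 5.07 CPM with Eed guides, against 2.71 ± 1.27 CPM with NT (SD over 3 libraries each; log2 fold change 3.25 ± 0.612, SE; adjusted p = 0.000105 by edgeR). Marveld2, encoding tricellulin, rose by 5.61 ± 1.16 log2 units (adjusted p = 0.000326) and F11r, encoding the junctional adhesion molecule JAM-A, by 3.07 ± 0.636 (adjusted p = 0.000345). Cldn3 had 90 counts with Eed guides and 0 with NT, at least 22-fold higher (adjusted p = 6.28e-05). This bound was 13.4 to 35.7-fold with 1 library left out, lowest without Eed replicate 3 and highest without Eed replicate 1.

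Of 10 desmosome and cornified envelope genes 8 rose and 0 fell. Ppl, encoding periplakin, stood at 21.9 ± 12 CPM with Eed guides, against 0.103 ± 0.179 CPM with NT (SD, n = 3 each; 7.47 ± 1.13 log2 units, SE; adjusted p = 3.86e-06 by edgeR). Jup, encoding plakoglobin, rose by 0.77 ± 0.145 log2 units (adjusted p = 9.56e-05), Pkp2, encoding plakophilin 2, by 1.84 ± 0.372 (adjusted p = 0.000261), and Dsg3, a desmosomal cadherin, by 5.34 ± 1.27 (adjusted p = 0.00245). The call of Pkp2 was lost in 1 of 12 alternative settings and that of Dsg3 in 2, with adjusted p up to 0.16 and 0.184.

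Among the keratins 6 of 9 rose and 0 fell. Krt5, the keratin of basal layers, stood at 65.4 ± 23.1 CPM with Eed guides, against 1.41 ± 1.36 CPM with NT (SD, n = 3 each; 5.55 ± 0.859 log2 units, SE; adjusted p = 6.97e-06 by edgeR). Its partner Krt14 stood at 28.2 ± 11.5 CPM, against 0.361 ± 0.497 CPM (6.26 ± 1.14, adjusted p = 6.18e-05), and Krt15 at 49.4 ± 18.7 CPM, against 2.03 ± 1.81 CPM (4.57 ± 0.851, adjusted p = 8.84e-05). Krt4, of internal stratified epithelia, had 879 counts with Eed guides and 0 with NT, at least 215-fold higher (adjusted p = 1.54e-05; 132-fold without NT replicate 1 and 334-fold without Eed replicate 1). The Krt4 call was lost in 1 of 12 alternative settings (adjusted p up to 0.151). Krt5 had already passed at day 7, with 38 counts over the Eed libraries and 0 with NT (at least 16.5-fold, or 7.99-fold without NT replicate 1; adjusted p = 0.0192), and at day 9 (3.52 ± 0.971 log2 units, adjusted p = 0.0281). The Ezh2 libraries of day 7 held nearly as many counts of Krt5, 37 (at least 14.9-fold above NT), a difference that did not pass.

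Of 12 transcription and splicing factors of epithelia 8 rose and 0 fell. Grhl3, a Grainyhead-like factor of surface ectoderm, stood at 16.4 ± 5.82 CPM with Eed guides, against 1.45 ± 0.0864 CPM with NT (SD, n = 3 each; 3.48 ± 0.742 log2 units, SE; adjusted p = 0.000487 by edgeR). The splicing regulator Esrp1 rose by 4.54 ± 0.882 log2 units (adjusted p = 0.000155). Tfap2a, a factor of surface ectoderm and neural crest, rose with several guides. It stood at 82.4 ± 5.30 CPM with Eed guides, 39.6 ± 11.9 CPM with Ezh2 guides and 87.7 ± 23.7 CPM with Brd8 guides, against 9.96 ± 7.47 CPM with NT (SD, n = 3 each), with log2 fold changes of 3.04 ± 0.492, 1.99 ± 0.483 and 3.13 ± 0.493 (SE; adjusted p = 1.12e-05, 0.0063 and 1.09e-05 by edgeR). The Ezh2 call held in 10 of 12 alternative settings. In the same Brd8 libraries Trp63 stood at 6.42, 1.94 and 2.66 CPM, against 1.94, 2.60 and 0.604 CPM in NT libraries, and Cdh1 at 16.4, 2.91 and 3.35 CPM, against 6.43, 11.3 and 8.15 CPM in NT libraries, both overlapping NT.

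In the hemidesmosome and basement membrane list 3 of 8 rose with Eed guides at day 11 and 1 fell. Lamb3 had 83 counts with Eed guides and 0 with NT (at least 20.3-fold, or 12.5-fold without NT replicate 1; adjusted p = 0.00631 by edgeR), and Itga6, which neural progenitors also express, rose by 0.52 ± 0.129 log2 units (SE; adjusted p = 0.00258). Dst, encoding dystonin, fell by 0.44 ± 0.117 log2 units (adjusted p = 0.00466). Itgb4, Itga3, Lama3 and Col17a1 did not pass, with log2 fold changes of 0.19, 0.04, 3.08 and 2.97.

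Of 12 epithelial surface proteins 8 rose and 0 fell. St14, encoding the protease matriptase, rose by 4.06 ± 0.746 log2 units (SE; adjusted p = 7.21e-05 by edgeR), its inhibitor Spint1 by 4.11 ± 0.96 (adjusted p = 0.00137), the filament-anchoring protein Lad1 by 4.64 ± 0.797 (adjusted p = 2.98e-05) and Mal2 by 5.48 ± 1.46 (adjusted p = 0.00463). Of 4 uroplakins in the list only Upk1a had enough counts to be tested, and it rose by 2.34 ± 0.68 log2 units (adjusted p = 0.00983). The calls of Mal2 and Upk1a were each lost in 1 of 12 alternative settings (adjusted p up to 0.0603 and 0.0894).

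Relatives of p63 and of 14-3-3 sigma and genes of the cadherin switch were also tested. The shares over all genes with Eed guides at day 11 were 13.3% higher and 10.6% lower. Trp53 rose with Eed guides at day 11 by 0.47 ± 0.111 log2 units (SE; adjusted p = 0.00155 by edgeR), while Trp73 had 0.3 ± 0.263 CPM, against 0.186 ± 0.321 CPM with NT (SD, n = 3 each). Of 6 other 14-3-3 genes 0 rose and 2 fell, Ywhab by 0.26 ± 0.0635 log2 units and Ywhag by 0.26 ± 0.0743 (adjusted p = 0.0025 and 0.00946). Cdh2, encoding N-cadherin, fell by 0.43 ± 0.0595 log2 units, at 387 ± 11.5 CPM with Eed guides, against 521 ± 18.3 CPM with NT (adjusted p = 9.47e-07). Of 6 repressors of E-cadherin Snai1 and Snai2 rose, by 1.01 ± 0.368 and 2.02 ± 0.659 log2 units (adjusted p = 0.0423 and 0.0215), Zeb1 fell by 0.32 ± 0.0774 (adjusted p = 0.00213), and Zeb2, Twist1 and Twist2 did not pass. Zeb1 had also passed as lower with Eed guides at day 7, and Cdh2 at day 9. Cdh2 and Zeb1 also passed as lower with Brd8 guides at days 9 and 11, and Zeb2 as higher at day 11. Trp53 passed as higher, and Ywhab and Ywhag as lower, with Brd8 guides at day 9 (7.72% and 7.81% of all genes). With those guides the log2 fold change of Cdh1 was -0.99 at day 9 (not passing) and -0.19 at day 11 (not tested).

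Markers of other cell types were measured beside these genes, and their part in the results was not tested. With Eed guides at day 11, 13.3% of all genes rose and 10.6% fell. Of 8 pluripotency markers 1 rose with Eed guides at day 11 (Esrrb), and their summed level was 32.5 to 48.8 CPM in Eed libraries, against 31.6 to 37.6 CPM in NT libraries. Of 5 tested trophectoderm markers 1 rose, Elf5, a factor that some adult epithelia also express (142 counts with Eed guides and 0 with NT). The trophectoderm sum was 7.05 to 9.30 CPM in Eed libraries, against 2.63 to 2.82 CPM in NT libraries. Of 7 tested endoderm markers 0 passed by edgeR, with a sum of 20.1 to 41.1 CPM in Eed libraries, against 12.2 to 15.5 CPM in NT libraries, where Afp and Apoa1 were at 0. Esrrb also rose with Ezh2 guides at day 11, while Pou5f1, Utf1 and Zfp42 fell with Brd8 guides. The pluripotency sum at day 7 was 17.9 to 33.0 CPM in Eed libraries and 25.2 to 34.7 CPM in Ezh2 libraries. It was 7.03 to 31.5 CPM in Brd8 libraries and 19.4 to 35.8 CPM in Nr6a1 libraries, against 50.9 to 96.2 CPM in NT libraries. There Pou5f1 fell with Eed guides (5.76% of all genes fell), and Esrrb, Nanog and Pou5f1 with Brd8 guides (3.45%).

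Ectodermal lists were also measured. The shares over all genes at day 11 were 13.3% higher and 10.6% lower with Eed guides. They were 5.22% and 2.7% with Ezh2 guides and 10.3% and 7.48% with Brd8 guides. Of 5 tested preplacodal markers 2 rose with Eed guides at day 11 (Dlx3 among them), 2 with Brd8 guides and 1 with Ezh2 guides. Their sum was 57.6 to 66.4 CPM in Eed libraries and 53 to 76.2 CPM in Brd8 libraries, against 31.3 to 38.2 CPM in NT libraries. Of 5 neural crest markers 2 rose with Eed guides (Foxd3 and Tfap2b) and 2 fell (Sox9 and Ets1). Their sum was 494 to 561 CPM in Eed libraries, against 562 to 597 CPM in NT libraries. Foxd3 and Tfap2b also rose with Ezh2 and with Brd8 guides, while Ets1 fell with Ezh2 guides and Sox9 with Brd8 guides. Of the 7 neural progenitor markers Fabp7, Nes, Olig2 and Sox1 fell and Pax6 rose with Eed guides, and the same 5 passed in the same directions with Ezh2 and with Brd8 guides. The summed level of the 10 keratins was 131 to 272 CPM in Eed libraries, 11.2 to 29.4 CPM in Ezh2 libraries and 4.02 to 21.0 CPM in Brd8 libraries, against 11.8 to 17.7 CPM in NT libraries.

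Over the 15 group means, the genes whose log2 CPM was most like the mean profile of the 9 included Ppl (Pearson r = 0.965), Esrp1 (0.951), Cdcp1 (0.944), Cldn8 (0.941), Krt7 (0.932), Spint1 (0.931), Anxa8 (0.929), Grhl3 (0.929) and Macc1 (0.928). Esrp1, for example, stood at 6.55 ± 1.87 CPM in Eed libraries, against 1.53 ± 0.702 CPM in NT libraries at day 7, and at 17.1 ± 4.5 CPM, against 0.712 ± 0.632 CPM, at day 11 (SD, n = 3 each). Over the 41 libraries the genes most like Trp63 were Cdh3 (r = 0.833), Arhgef5 (0.825), Ahnak (0.793), Arhgef19 (0.792) and Tfap2b (0.79). Those most like Cdh1 were St14 (0.908), Spint1 (0.876), Ppl (0.874), Lama5 (0.872) and Cdh3 (0.844). These correlations are descriptions over libraries that share groups and depth.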

How the data were processed

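Total RNA was ribodepleted and made into directional libraries, per the labels' protocols, although the labels list the molecule as genomic DNA. The authors deposited 1 table of estimated counts per gene symbol and library, not normalized, in which 2.95% of values carry fractions. The genome build mm10 and the tool DESeq2 stand in the submitters' processing notes. Neither the labels nor the notes used here name an aligner, quantifier, annotation or strand setting.

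Estimated counts were rounded. Of 24410 symbols, 15204 passed filterByExpr and were tested in edgeR 4.0.16 (R 4.3.3) with TMM scaling, 1 mean per group over all 41 libraries, two-sided quasi-likelihood tests and Benjamini-Hochberg adjustment over all tested genes at 0.05. Steps were checked on simulated data. Correlations used log2 CPM with a prior count of 2.

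The 9 genes and all lists were chosen with earlier results of these data known. In each list, up to 4 genes with the smallest adjusted p at day 11 with Eed guides and a mean of at least 2 CPM were named, or the whole list where it held 8 or fewer. Likeness was reported for the 10 closest genes, and the 5 closest to Trp63 and to Cdh1. A few genes that these rules select are not reported here. Alternatives were DESeq2 size factors, no filter, the replicate number as a block, leaving out libraries, only the groups compared, and the DESeq2 1.42.0 Wald test. Depth limits low genes: 3 counts equal 0.0748 to 0.37 CPM.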

Additional observations from a re-analysis of the deposited data

Results flagged for a closer look

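Cdh1 lay on opposite sides of NT with Nr6a1 guides at different days. At day 11 it stood at 11.9 and 20.9 CPM in Nr6a1 libraries, against 6.43, 11.3 and 8.15 CPM in NT libraries, a log2 difference of 0.93. At day 9 it stood at 5.56 and 3.96 CPM in Nr6a1 libraries, against 9.74, 10.6 and 9.23 CPM in NT libraries (-1.04), and at day 7 at 8.06 and 13.1 CPM, against 20.2, 19.1 and 16.9 CPM (-0.80). Every Nr6a1 library lay above every NT library at day 11 and below every NT library at the earlier days. Such a separation held for 13.2% of all genes at day 11 (higher), 13.4% at day 9 (lower) and 12.8% at day 7 (lower). By edgeR Cdh1 did not pass at day 9 or day 7 (adjusted p = 0.763 and 0.812). The effects differed by 1.97 log2 units between days 11 and 9 and by 1.73 between days 11 and 7. Neither difference was tested, and each Nr6a1 group holds 2 libraries. The summed level of the 8 pluripotency markers also lay on opposite sides of NT. At day 11 it was 46.5 to 68.4 CPM in Nr6a1 libraries, against 31.6 to 37.6 CPM in NT libraries. At day 9 it was 20.1 to 21.2 CPM, against 50.5 to 63.4 CPM, and at day 7 19.4 to 35.8 CPM, against 50.9 to 96.2 CPM. By edgeR 0 of these markers passed with Nr6a1 guides at each day, and their part in the Cdh1 levels was not tested.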

How the results depend on the processing

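Of 1699 values of the 9 genes with an adjusted p under both settings, 1641 kept their side of the threshold, 14 lost a call, 44 gained one and 0 called values changed sign, while 82 that passed in neither setting had another sign. Another 53 had no adjusted p and are not counted. With no filter on low counts, the 9 genes gave 4 calls for Eed at day 7 and 3 at day 9, 1 for Ezh2 at day 7, 2 and 3 for Brd8 at days 7 and 9, 3 and 1 for Nr6a1 at days 7 and 9, 1 and 5 for Eed against Ezh2 at days 7 and 9, 3 for NT day 9 against day 7 and 1 for the Brd8 effect at day 9 against day 7, and the lists gave 8 for Ezh2 at day 11. With only the groups compared in the fit there were 5 for Eed at day 7 and 0 at day 9, 1 for Ezh2 and 2 for Brd8 at day 7, 0 for Brd8 at day 9, 1 for Eed against Ezh2 at day 7 and 2 for NT day 9 against day 7, and in the lists at day 11 1 for Ezh2 and 2 for Brd8. The DESeq2 Wald test gave 1 for Brd8 at day 7 and 1 for NT day 9 against day 7. Without the 2 libraries of low agreement there were 2 for Eed at day 9, 1 for NT day 9 against day 7 and, in the lists, 1 for Ezh2 at day 11. The cause of these shifts was not tested. Leaving out 1 library at a time gave 1 to 1 calls for Eed at day 7, 0 to 2 for Eed at day 9, 0 to 1 for Brd8 at day 7, for Brd8 at day 9, for Eed against Ezh2 at day 9 and for NT day 9 against day 7, and in the lists at day 11 37 to 43 for Eed, 1 to 4 for Ezh2 and 3 to 5 for Brd8. Above every NT library at day 11 there were then 9 to 9 genes with Eed guides, 1 to 2 with Ezh2, 0 to 1 with Brd8 and 2 to 4 with Nr6a1. Replicate numbers gave no sign of pairing: of 41 same-numbered pairs, which share libraries, 1 had a correlation of deviations over 0.1 (-0.0278 to 0.104). Groups of 2 or 3 libraries are too small to settle whether same-numbered samples belong together. The replicate block gave 1 call for NT day 9 against day 7 (Cldn4, adjusted p = 0.0487 by edgeR) and 3 in the lists for Ezh2 at day 11, and moved no other count of calls by over 1.5 times.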
